A study of Mus musculus with 2 samples.

Results

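Ferritin and iron handling genes were followed in the lungs of newborn mice. The set comprised 10 genes, picked by symbol from the 43346 mouse genes of the deposited tables, of which 21474 are protein-coding. Ftl1 and Fth1 encode the ferritin light and heavy chains, Trf and Tfrc transferrin and its receptor, Slc11a2 and Slc40a1 the iron importer DMT1 and the exporter ferroportin, Cp and Heph the ferroxidases ceruloplasmin and hephaestin, and Aco1 and Ireb2 the iron regulatory proteins IRP1 and IRP2. Their levels in these libraries were known when they were picked, so each level below is a description. The order of levels supports no test.

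Total RNA of lung was sequenced from B6NCrl mice on postnatal day 0, the day of birth, with both lungs of a single pup in each library. Pup 1 and pup 3 are the only samples, so there is 1 group and no contrast of genotype, treatment or age. The labels record the same pregnancy number, 1, and the same donor identifier for both, and the pups' sex was not collected. They also number the libraries as separate biological replicates, so n = 2 rests on the pup and replicate numbers. Expected counts over genes totalled 42189536 in pup 1 and 37026165 in pup 3. Markers of lung were plentiful: Sftpc, the surfactant protein C gene of alveolar type 2 cells, stood at 77317 and 68981 TPM in pups 1 and 3, and Ager of type 1 cells at 3328 and 3579 TPM. Red cell transcripts were abundant too, with Hba-a2, an alpha globin gene, at 24633 and 29620 TPM. In whole-organ RNA, fewer cells of a type and less RNA per cell cannot be told apart.

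Cells keep spare iron inside ferritin, a hollow shell of light and heavy chains in which the heavy chain oxidizes ferrous iron for storage. Iron in blood plasma travels on transferrin, enters cells through the transferrin receptor and DMT1, and leaves through ferroportin with the help of a ferroxidase. When iron is scarce, IRP1 and IRP2 bind iron-responsive elements, short stem-loops in certain mRNAs. Binding near the 5′ end blocks translation, as in the ferritin chains and ferroportin, and binding in the 3′ untranslated region protects the mRNA of the transferrin receptor from decay. Newborn lung meets oxygen in air abruptly, and ferritin limits the free iron that can react with oxygen products.

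The annotated mRNAs of Ftl1, Fth1, Slc40a1, Tfrc and Slc11a2 hold this element, and the 9 stretches of 30 bases below are shown because they are what the regulatory proteins are known to read. Sequences are from GENCODE M21 transcripts, written 5′ to 3′ in the sense of the mRNA (T for U), and capitals mark the loop of 6 bases. The motif searched was C, then NNNNN, then CAGTGN or CAGAGN, then NNNNN that pairs with the first NNNNN in reverse order (A-T, G-C or G-T), on the sense strand of the spliced transcript. A wider form allowed 1 extra base after the loop, and of these 9 only the Slc11a2 match needed it. The wider form was required beforehand to match this Slc11a2 site, so that match is not a finding of the search.
Ftl1 5′ UTR: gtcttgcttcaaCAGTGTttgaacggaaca
Fth1 5′ UTR: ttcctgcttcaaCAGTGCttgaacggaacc
Slc40a1 5′ UTR: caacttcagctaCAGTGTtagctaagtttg
Tfrc 3′ UTR site 1: atttatcagtgaCAGAGTtcactataaata
Tfrc 3′ UTR site 2: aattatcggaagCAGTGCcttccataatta
Tfrc 3′ UTR site 3: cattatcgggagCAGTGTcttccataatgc
Tfrc 3′ UTR site 4: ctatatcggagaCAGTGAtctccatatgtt
Tfrc 3′ UTR site 5: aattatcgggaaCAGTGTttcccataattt
Slc11a2 3′ UTR: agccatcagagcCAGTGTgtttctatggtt

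On GRCm38 (mm10) the Ftl1 stretch lies at chr7:45459778-45459807 on the minus strand, the Fth1 stretch at chr19:9982732-9982761 on the plus strand and the Slc40a1 stretch at chr1:45925464-45925493 on the minus strand. Their loops start 164, 126 and 218 bases before the coding part. The 5 Tfrc stretches lie on the plus strand at chr16:32631160-32631189, chr16:32631219-32631248, chr16:32631598-32631627, chr16:32631663-32631692 and chr16:32631710-32631739, and their loops start between 836 and 1386 bases after the stop codon. The Slc11a2 stretch, at chr15:100395152-100395181 on the minus strand, starts its loop 44 bases after the stop codon of transcript Slc11a2-205. The Ftl1 and Fth1 stretches share 26 of 30 bases, whereas the Slc40a1 stretch shares 13 of 30 with each of them. Among the Tfrc stretches, sites 2 and 3 share 25 of 30 bases and site 1 is the only one of the 9 with the loop CAGAGT.

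Over the whole annotation the stricter motif was found in the 5′ UTRs of 0.340% of 20281 genes and in the 3′ UTRs of 1.38% of 21008 genes. The wider form was found in 1.26% and 4.43% of them. A match is a string of letters that can pair, not a measured binding event. Transcripts Cp-204 and Cp-205 also held a stricter match in the 3′ UTR, with 9.05% of Cp abundance in pup 1 and 8.63% in pup 3. No transcript of Trf, Ireb2, Aco1 or Heph matched either form.

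**Figure D1:**
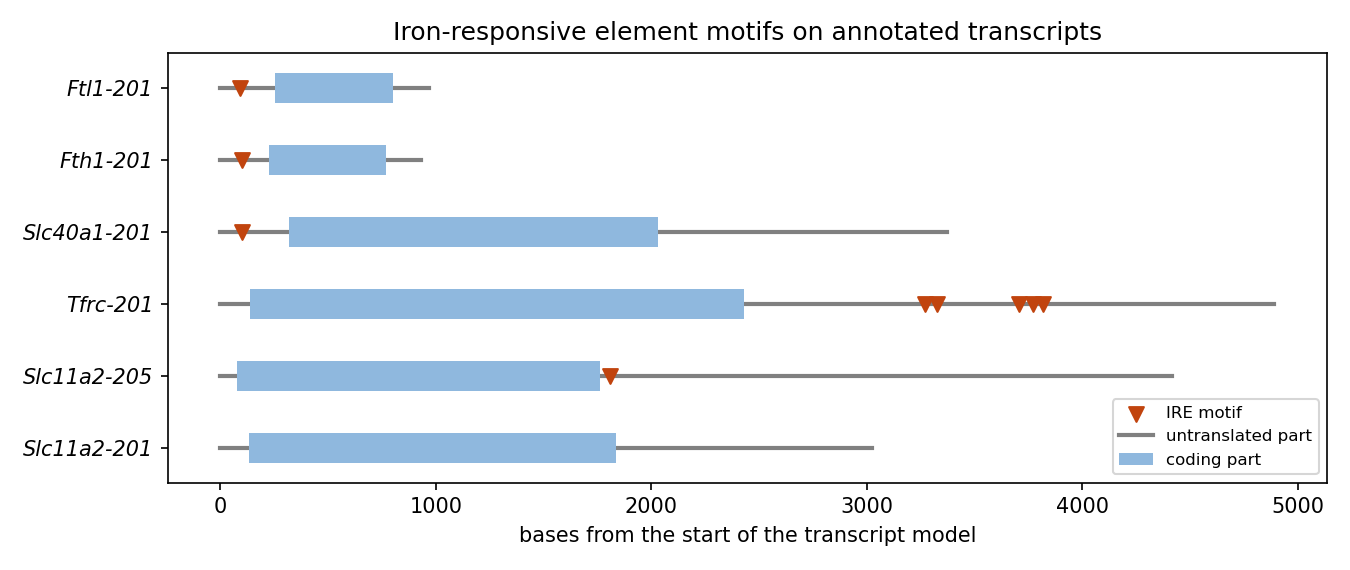
Positions of the iron-responsive element motif (red triangles) on annotated transcripts, in bases from the start of each transcript model; thick blue bars are coding parts and grey lines untranslated parts. The motif lies ahead of the coding part in Ftl1-201, Fth1-201 and Slc40a1-201, and after it in Tfrc-201 (5 motifs) and Slc11a2-205, while Slc11a2-201 holds none.

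The storage genes far exceeded all others of the set. Ftl1 (ENSMUSG00000050708, chromosome 7, 45457944 to 45459884, minus strand) stood at 5314 TPM in pup 1 and 5149 TPM in pup 3, a mean of 5231 ± 117 TPM (SD, n = 2), on 148641 and 122544 counts. Fth1 (ENSMUSG00000024661, chromosome 19, 9980598 to 9985098, plus strand) stood at 3553 TPM in pup 1 and 3541 TPM in pup 3, a mean of 3547 ± 8.89 TPM, on 87945 and 74566 counts. Its mean was 3479 by posterior mean TPM, a move larger than that SD, which covers the spread between pups only. By mean TPM, a level per length of transcript, Ftl1 and Fth1 ranked 11 and 15 among the 21474 protein-coding genes. Together the chains held 0.887% of all TPM in pup 1 and 0.869% in pup 3, and 92.0% and 93.0% of the TPM of the 10 genes.

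Light chain transcripts exceeded heavy chain transcripts in both pups. The ratio of Ftl1 to Fth1 was 1.496 in pup 1 and 1.454 in pup 3 on the TPM scale (1.47 ± 0.0293), and the values of the pair did not overlap. A ratio of transcripts is not the ratio of chains in the protein shell, because translation of both is under the control described above. Nearly all of the Ftl1 abundance (98.88% in pup 1, 98.82% in pup 3) was given to Ftl1-201, which holds the motif, and the other 4 models of the tables were not searched because their identifiers are not in GENCODE M21. Fth1 has a single transcript in the tables, and its M21 sequence carries the motif.

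Ferritin genes have many processed copies in the genome that can share their reads. Of 7 genes at least 90% identical to Ftl1 over at least 200 bases, 2 had 50 or more counts. Ftl1-ps1, 99.56% identical over 910 bases, was listed at 2389 counts in pup 1 and 2071 in pup 3, and Gm15590, 99.09% identical over 552 bases, at 49.1 and 72.8 counts. All 7 copies together held 1.66% and 1.77% as many counts as Ftl1. The one such copy of Fth1, Gm6977, had 109 and 101 counts, or 0.124% and 0.135% of those of Fth1. A short microRNA model inside Ftl1, Gm22133, took 1498 and 1137 counts, or 1.01% and 0.928% of those of Ftl1. With an effective length of 10 bases it was listed at 4643 and 4143 TPM in pups 1 and 3, which is part of the TPM total of each library. Even if each count of the copies and of Gm22133 came from the parent genes, the Ftl1 level would change by less than the distance between Ftl1 and Fth1. Ftmt, the mitochondrial ferritin gene, had 0 counts in both libraries, where a count of 0 allows up to 3 counts, or 0.0711 and 0.0810 CPM in pups 1 and 3.

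**Figure D2:**
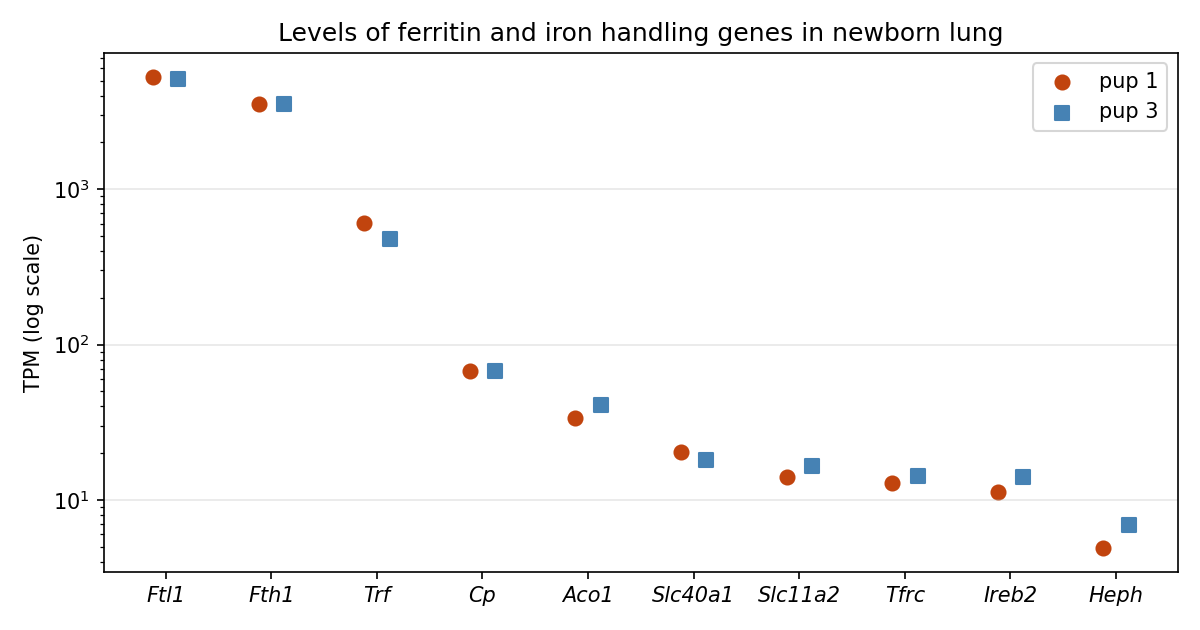
TPM of the 10 genes on a log axis, with a circle for pup 1 on the left and a square for pup 3 on the right of each gene, in order of mean level. Ftl1 and Fth1 lie far above the others, Trf comes next at 606 and 475 TPM, and Heph is lowest at 4.87 and 6.87 TPM.

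The plasma iron carrier was the next highest gene, far above its receptor. Trf (ENSMUSG00000032554, chromosome 9, 103204001 to 103230444, minus strand) stood at 606 TPM in pup 1 and 475 TPM in pup 3, a mean of 541 ± 92.7 TPM, on 37823 and 24723 counts, and ranked 196. Tfrc (ENSMUSG00000022797, chromosome 16, 32608920 to 32632794, plus strand), which brings iron-loaded transferrin into cells, stood at 12.8 and 14.1 TPM in pups 1 and 3, a mean of 13.5 ± 0.919 TPM. Trf therefore lay 47.3-fold above Tfrc in pup 1 and 33.6-fold in pup 3 on the TPM scale. Slc11a2 (ENSMUSG00000023030, chromosome 15, 100387898 to 100425072, minus strand), the proton-coupled importer of ferrous iron, stood at 14.0 and 16.4 TPM, a mean of 15.2 ± 1.68 TPM. The values of Slc11a2 and Tfrc overlapped between the pups, and so did those of Tfrc and Ireb2, so across the pups these neighbours have no order beyond their spread. Within each pup the order was the same by a small margin. Slc11a2 lay 1.09-fold and 1.16-fold above Tfrc, and Tfrc 1.13-fold and 1.01-fold above Ireb2, in pups 1 and 3.

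Transferrin in plasma comes mainly from liver. Liver markers were scarce in these libraries, with 5 of 10 at 1 TPM or more in both pups and a summed level of 16.1 TPM in pup 1 and 9.44 TPM in pup 3. Alb, the albumin gene, stood at 2.77 and 1.87 TPM, and Ttr, Serpina1a, Fgb, Apob and Ambp were under 1 TPM in both. No liver marker was at 0 in both libraries. Glial cells also make transferrin: 2 of 6 glial markers reached 1 TPM in both pups, and the list summed to 11.3 and 12.7 TPM. The part of liver or glial RNA in the Trf level was not tested.

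Iron export genes were of moderate to low level. Cp (ENSMUSG00000003617, chromosome 3, 19957054 to 20009145, plus strand), the copper ferroxidase of plasma and of cell surfaces, stood at 67.3 TPM in pup 1 and 67.7 TPM in pup 3, a mean of 67.5 ± 0.332 TPM. Slc40a1 (ENSMUSG00000025993, chromosome 1, 45908068 to 45926523, minus strand), the only known cellular iron exporter of mammals, stood at 20.4 and 18.1 TPM, a mean of 19.2 ± 1.61 TPM. Heph (ENSMUSG00000031209, chromosome X, 96455359 to 96574485, plus strand), a membrane relative of Cp best known from gut, stood at 4.87 and 6.87 TPM, a mean of 5.87 ± 1.41 TPM. Cp lay 13.8-fold above Heph in pup 1 and 9.86-fold in pup 3, on the TPM scale. Markers of macrophages, cells in which ferroportin exports recycled iron, summed to 230 TPM in pup 1 and 281 TPM in pup 3, with 11 of 12 at 1 TPM or more in both and none at 0. Without Cd14, a choice made after its values were seen, the other 11 summed to 201 TPM in pup 1 and 192 TPM in pup 3. Of the 12 markers, 8 had ratios of scaled counts above 1 and 4 below, with a median log2 ratio of 0.07. Their part in the Slc40a1 level was not tested.

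Of the regulatory proteins, the transcript of IRP1 exceeded that of IRP2. Aco1 (ENSMUSG00000028405, chromosome 4, 40143081 to 40198338, plus strand), whose product is an aconitase when it carries an iron-sulphur cluster, stood at 33.5 TPM in pup 1 and 40.7 TPM in pup 3, a mean of 37.1 ± 5.11 TPM. Ireb2 (ENSMUSG00000032293, chromosome 9, 54863789 to 54912530, plus strand), whose product is degraded when iron is ample, stood at 11.3 and 13.9 TPM, a mean of 12.6 ± 1.85 TPM. Both were lower in pup 1, and their ratio was 2.96 in pup 1 and 2.92 in pup 3 (2.94 ± 0.0265). Protein activity, which iron controls for both, was not measured.

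The pups were also set against each other, which is 1 library against 1 library, with no replicate check and no p-value. Expected counts were scaled by TMM. The size rule asked for 50 counts or more in the pair of libraries, a ratio of 2-fold or more and a 95% counting interval that excludes a ratio of 1. All 10 genes passed the count minimum and 0 passed the rule, beside 1.40% of 15790 tested genes. At 1.5-fold 0 passed as well, beside 5.06% of tested genes. The median log2 ratio of pup 1 over pup 3 was -0.0035 for the 10 genes and 0.0055 for all tested genes. Intervals and floors reflect counting error alone, because the reads carry no molecular identifiers and are not separate molecules.

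Trf showed the widest gap of the 10 genes on TMM-scaled counts. With library totals Heph was farther from no difference, at a log2 ratio of -0.45 beside 0.43 for Trf, and on deposited TPM it was at -0.50 beside 0.35. Trf was higher in pup 1, at 1.38-fold (95% interval 1.36 to 1.40), a log2 ratio of 0.47, and 9.33% of tested genes lay at least that far from no difference. Of 10 liver markers 7 had enough counts to be tested, and these had ratios above 1, with a median log2 ratio of 0.65. The counting interval left out 1 for 4 of the 7 and held it for 3. Of the 3 with fewer counts, Ttr had a log2 ratio of -0.04 and Serpina1a of -0.14. Ambp had a log2 ratio of 1.58 on 11 counts in pup 1 and 3 in pup 3, and its interval held 1. Apoa2, an apolipoprotein gene, was the only one past the size rule, at 4.86 and 2.03 TPM. Together, 8 markers of alveolar type 2 cells had 85435 TPM in pup 1 and 76633 TPM in pup 3, and 8118 and 7652 TPM without Sftpc, a choice made after its values were seen. Of the 8, 6 had ratios above 1 and 2 below, among them Lamp3 at 128 TPM in pup 1 and 167 TPM in pup 3. The part of either list in the Trf difference was not tested.

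Heph was farthest in the other direction. Its ratio was 0.751 (0.678 to 0.832) on 694 counts in pup 1 and 834 in pup 3, a log2 ratio of -0.41, and 11.9% of tested genes lay at least that far. Ireb2 at 0.861 (0.811 to 0.915), Aco1 at 0.885 (0.847 to 0.925) and Slc11a2 at 0.891 (0.825 to 0.963) were also lower in pup 1. Slc40a1 at 1.18 (1.11 to 1.26), Cp at 1.10 (1.06 to 1.14), Ftl1 at 1.09 (1.09 to 1.10) and Fth1 at 1.06 (1.05 to 1.07) were higher in pup 1. Tfrc, at 0.935 (0.873 to 1.00), was the only one whose interval held 1. Counts behind these ratios ran from 694 for Heph to 148641 for Ftl1, both in pup 1.

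The interval left out 1 in 9 of 10 genes, beside 46.2% of all tested genes, a share that follows the depth of each gene as well as the size of its ratio. These signs depend in part on scale. On deposited TPM the log2 ratio of Cp is -0.01, against 0.14 on TMM-scaled counts, and its effective length in the tables was 2908 bases in pup 1 and 2783 in pup 3. With spike-in totals as the scale, every ratio shifts by 0.14 on the log2 scale, which brings Tfrc to 0.05, against -0.10 with TMM. It also turns the median ratios of the wider lists of iron uptake, sensing and chaperone genes to values above 0. That scale rests on 317 and 316 spike-in counts.

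**Figure D3:**
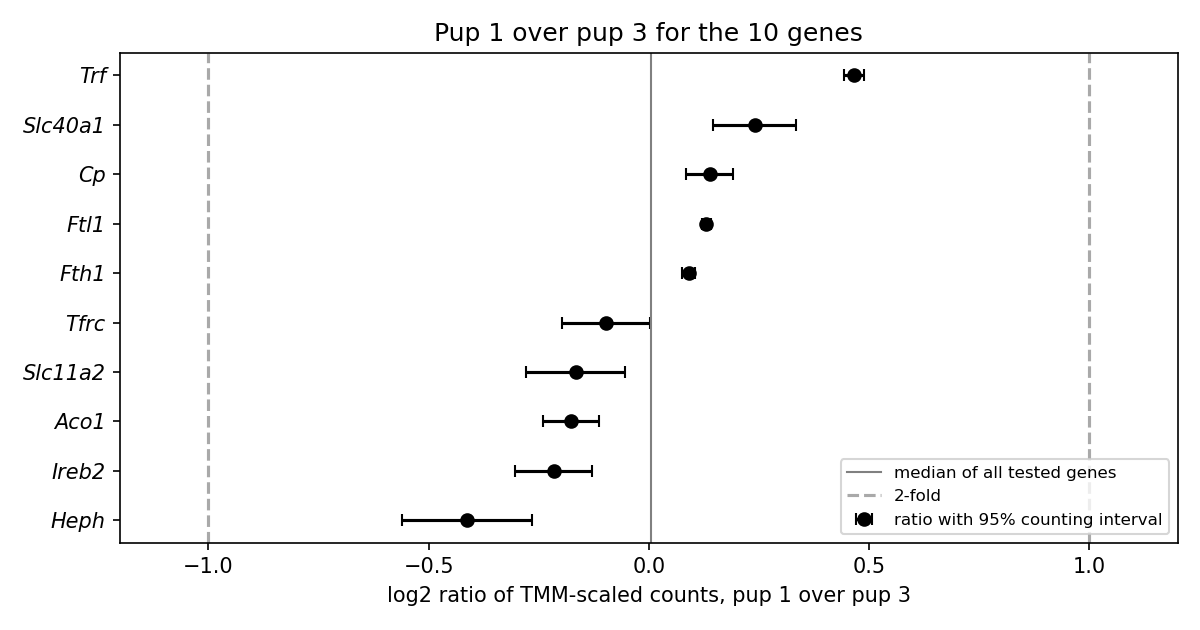
Log2 ratio of TMM-scaled counts, pup 1 over pup 3, for each gene with its 95% counting interval; the grey line is the median of all tested genes and dashed lines mark 2-fold. All 10 points lie between -0.41 (Heph) and 0.47 (Trf), inside the 2-fold lines; Cp changes sign on deposited TPM and Tfrc on spike-in totals.

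Transcript models divided the genes into those with 1 dominant form and those with several. A single model held 95.8% and 96.7% of Slc40a1 (Slc40a1-201), 98.4% and 96.8% of Aco1 (Aco1-201), and 90.05% and 91.4% of Heph (Heph-203) in pups 1 and 3. Ireb2 has 1 model in the tables. Shares are the deposited isoform percent, a per-length quantity estimated from short reads, so short models can reach a high share on few counts. By posterior mean isoform percent, Slc40a1-201 held 89.97% and 89.27%, Aco1-201 96.87% and 95.49%, and Heph-203 86.63% and 88.94% in pups 1 and 3.

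For Tfrc, the motif-bearing share of abundance was 88.25% in pup 1 and 94.1% in pup 3. By counts it was 98.7% and 97.8%, the opposite order, and Tfrc-203, a model of 166 bases, was listed at 7.21% of the abundance in pup 1 on 2 counts. The motif-bearing share was made up of the coding transcript Tfrc-201 (69.7% and 61.0%) and of Tfrc-204 (18.5% and 33.2%), a retained-intron model that holds the same 5 stretches and has no annotated coding part. Tfrc-204 had 263 counts in pup 1 and 441 in pup 3, a ratio of 0.538 (0.460 to 0.628), which is within 2-fold. Tfrc-201 had 1383 and 1134 counts, a ratio of 1.10 (1.02 to 1.19). The coding model was thus slightly higher in pup 1 and the retained-intron model lower, as the reads were divided between models in the tables. Beside this, 9.13% of 32970 tested transcripts of all genes passed the size rule between the pups.

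Slc11a2 is known to be made with alternative 3′ ends, with and without an iron-responsive element. Slc11a2-205, with the element and 1683 coding bases, held 34.9% of the abundance in pup 1 and 32.6% in pup 3. Slc11a2-201, without it and with 1704 coding bases, held 42.3% and 48.6%. By counts, which follow length, Slc11a2-205 had the larger part in pup 1, with 682 counts beside 560 for Slc11a2-201, and 634 beside 640 in pup 3. Neither form was dominant in either pup. The motif in Slc11a2-205 was found only with the extra base allowed, in a form required beforehand to match this site.

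Cp had 16 models and no dominant one. The leading model, Cp-209, is a retained-intron transcript of 1635 bases with 31.0% of the abundance in pup 1 and 32.3% in pup 3. All 7 retained-intron models of Cp together held 41.7% and 42.6% of the abundance and 21.9% and 24.0% of the counts. Cp overlaps Hps3 on the opposite strand over 13201 bases, and Hps3 had 928 and 869 counts. Whether counting used strand is not given in the sources used here, so reads of the overlap are uncertain.

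Full-length coding models of Cp ended at either of 2 stop codons. Ceruloplasmin is known as a secreted protein and, by alternative splicing of its last exons, as a form held to the membrane by a lipid anchor. Models ending at position 20005555 of chromosome 3 (Cp-201, Cp-204 and Cp-205, 3255 to 3258 coding bases) held 30.75% of the abundance in pup 1 and 31.6% in pup 3. Those ending at 19992522 (Cp-202 and Cp-203, 3180 to 3183 coding bases) held 25.3% and 20.0%. Cp-202 was higher in pup 1, with 2156 counts beside 1464 in pup 3, a ratio of 1.33 (1.24 to 1.42), whereas Cp-201, with 1880 and 1708 counts, had a ratio of 0.993 (0.930 to 1.06). These counts are reads as divided between models in the tables, and the intervals leave out the uncertainty of that division.

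Trf was led by Trf-201, with 72.8% of the abundance in pup 1 and 72.55% in pup 3. Trf-209, a retained-intron model of 433 bases, was listed at 22.4% and 24.6% on 1464 and 1072 counts, while all retained-intron models held 3.88% and 4.36% of the Trf counts. The Trf difference between the pups was in the leading model, with 35206 counts in pup 1 and 23406 in pup 3, a ratio of 1.36 (1.34 to 1.38). Trf-203, a coding model of 2339 bases with the coding start and stop of Trf-201, was listed at 756 counts in pup 1 and 0 in pup 3. By posterior mean isoform percent its share was 2.1% in pup 1 and 0.79% in pup 3, so the 0 depends on the estimate used. Trf-205 and Trf-208 also passed the 2-fold rule, beside 9.13% of 32970 tested transcripts of all genes. Gm20425, a model on the same strand that spans 26307 bases of Trf, had 555 counts in pup 1 and 732 in pup 3, opposite in direction to Trf.

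**Figure D4:**
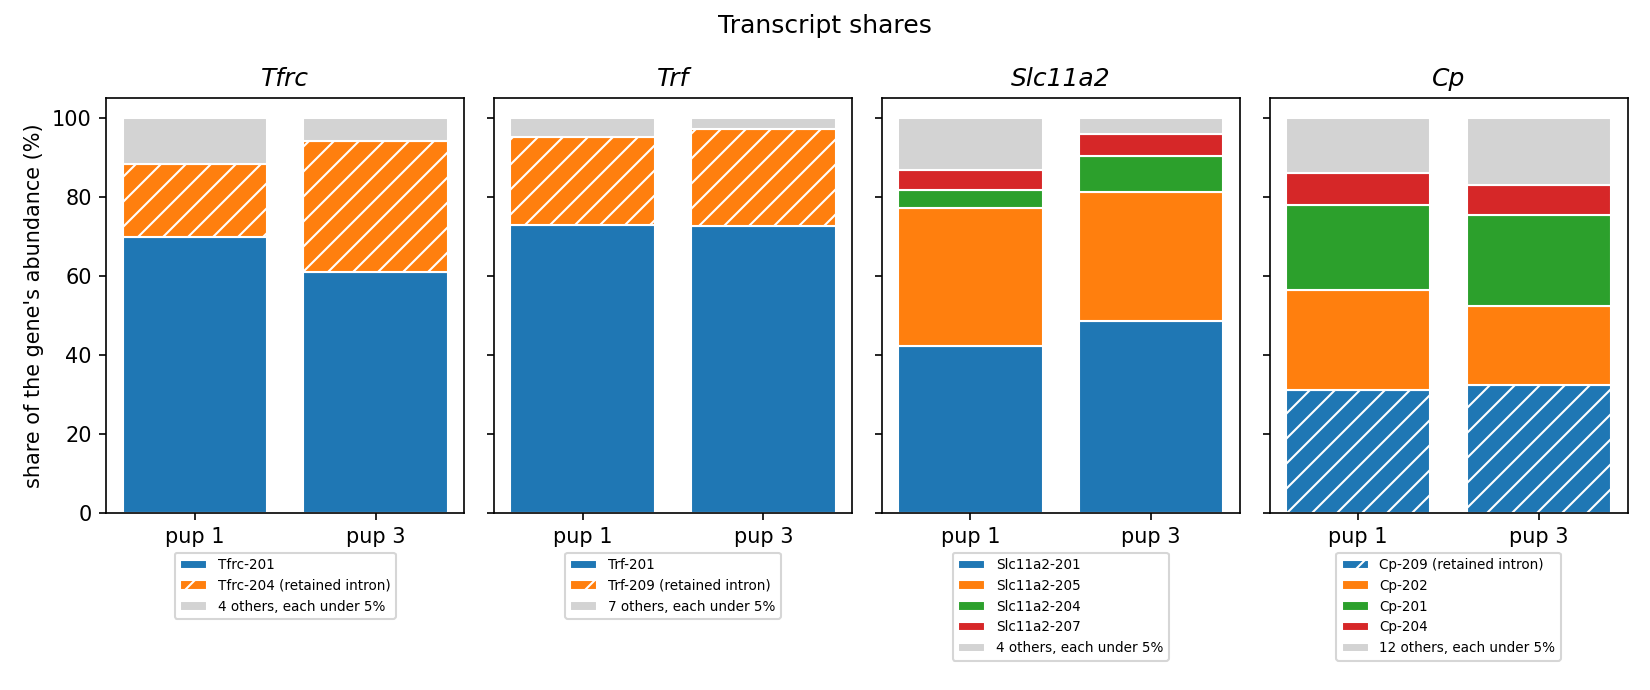
Share of each gene's abundance (percent) by transcript model in Tfrc, Trf, Slc11a2 and Cp, with pup 1 left of pup 3; hatched blocks are retained-intron models and grey blocks pool the models under 5% by mean. Tfrc-204 takes 18.5% in pup 1 and 33.2% in pup 3, and no single model of Cp reaches 33% in either pup.

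Around these genes, the wider iron pathway of newborn lung was examined in 9 lists, whose counts of genes past the size rule are read beside the same 1.40%. Among carriers, receptors, reductases and importers, 15 of 17 genes were tested, 6 with ratios above 1 and 9 below, with a median log2 ratio of -0.06. After Trf the highest were Lcn2, which binds iron-loaded bacterial siderophores, at 196 TPM in pup 1 and 314 TPM in pup 3, and Slc39a8, a zinc, manganese and iron importer, at 50.5 and 82.7 TPM. Steap4, a metalloreductase, was the only gene of the 9 lists past the size rule, at 5.67 TPM on 556 counts in pup 1 and 17.3 TPM on 1443 counts in pup 3, a ratio of 0.348 (0.315 to 0.384). Tfr2, the second transferrin receptor, and Meltf, melanotransferrin, stayed under 1 TPM in both pups. Cd14, the macrophage marker of highest mean level and the only one past the size rule, stood at 29.3 TPM in pup 1 and 89.4 TPM in pup 3, whereas most markers of its list had ratios above 1. Its part in these differences was not tested.

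Hepcidin, the liver hormone that brings about the loss of ferroportin from the cell surface, was not detected. Hamp and Hamp2 had 0 counts in both libraries, which allows up to 0.0711 and 0.0810 CPM in pups 1 and 3. Of 14 genes of the hepcidin axis, 10 were tested, 6 with ratios above 1 and 4 below, with a median log2 ratio of 0.01, and 0 passed the size rule. Id1, a target of BMP signalling, was the highest at 189 and 193 TPM, followed by Hfe at 29.3 and 27.1 TPM and Smad1 at 19.4 and 20.5 TPM. Hfe2 (hemojuvelin), Tmprss6 and Erfe (erythroferrone) were under 1 TPM in both.

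Genes of iron sensing were all detected. Of the 8 genes, 2 had ratios above 1 and 6 below, with a median log2 ratio of -0.05. Skp1a and Fbxl5, parts of the ubiquitin ligase that removes IRP2 when iron is ample, stood at 485 and 65.45 TPM in pup 1, and at 504 and 71.0 TPM in pup 3. Epas1, which encodes HIF-2 alpha, stood at 79.0 and 86.2 TPM. It is known for an iron-responsive element in the 5′ UTR, and only the wider form of the motif was found there, in the M21 sequence of its single transcript. That model has 5516 bases in M21 and 5309 in the deposited tables. Whether the deposited model holds the site, at base 81 in M21, was not tested.

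Delivery to and release from ferritin rest on the chaperones Pcbp1 and Pcbp2 and on Ncoa4, the receptor that takes ferritin to the lysosome. Pcbp1 stood at 279 TPM in pup 1 and 312 TPM in pup 3, Ncoa4 at 62.0 and 65.9 TPM and Pcbp2 at 55.1 and 57.1 TPM. Of the 5 genes of the list, 1 had a ratio above 1 and 4 below, with a median log2 ratio of -0.02. The export list, beside Cp, Slc40a1 and Heph, held Hephl1, which was at 0 counts in pup 1 and 1 count in pup 3. Of its 3 tested genes 2 had ratios above 1 and 1 below, with a median log2 ratio of 0.14, which is -0.14 when Hephl1 is included with no minimum count, and both tested ferritin genes had ratios above 1, with a median of 0.11.

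Mitochondrial iron use had 18 genes, all at 1 TPM or more in both pups, of which 14 had ratios above 1 and 4 below, with a median log2 ratio of 0.15 and 0 past the size rule. Fdx1, a ferredoxin, was the highest at 231 TPM in pup 1 and 193 TPM in pup 3, followed by the iron-sulphur scaffold Iscu at 198 and 174 TPM and Glrx5 at 126 and 127 TPM. In heme synthesis, with 9 genes, Alas1, the housekeeping first enzyme, stood at 170 and 166 TPM, the red cell enzyme Alas2 at 128 and 158 TPM and Alad at 98.0 and 97.6 TPM. The list had 6 ratios above 1 and 3 below, with a median log2 ratio of 0.03. Red cell markers summed to 55566 TPM in pup 1 and 66585 TPM in pup 3, with 9 of 11 at 1 TPM or more in both and none at 0, and their part in the Alas2 level was not tested. Alas2 is also known for a 5′ element, and the stricter motif was found in transcripts with 99.3% and 99.2% of its abundance.

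In heme uptake, breakdown and export, 13 genes were tested, 7 with ratios above 1 and 6 below, with a median log2 ratio of 0.06. Hp, which encodes haptoglobin, the plasma protein that binds free hemoglobin, led with 618 TPM in pup 1 and 741 TPM in pup 3. Hmox2, the constitutive heme oxygenase, stood at 85.3 and 81.2 TPM, and Lrp1, a receptor that takes up heme bound to hemopexin, at 62.0 and 65.9 TPM. Cd163, the macrophage receptor for hemoglobin bound to haptoglobin, was under 1 TPM in both at 0.58 and 0.59 TPM.

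**Figure D5:**
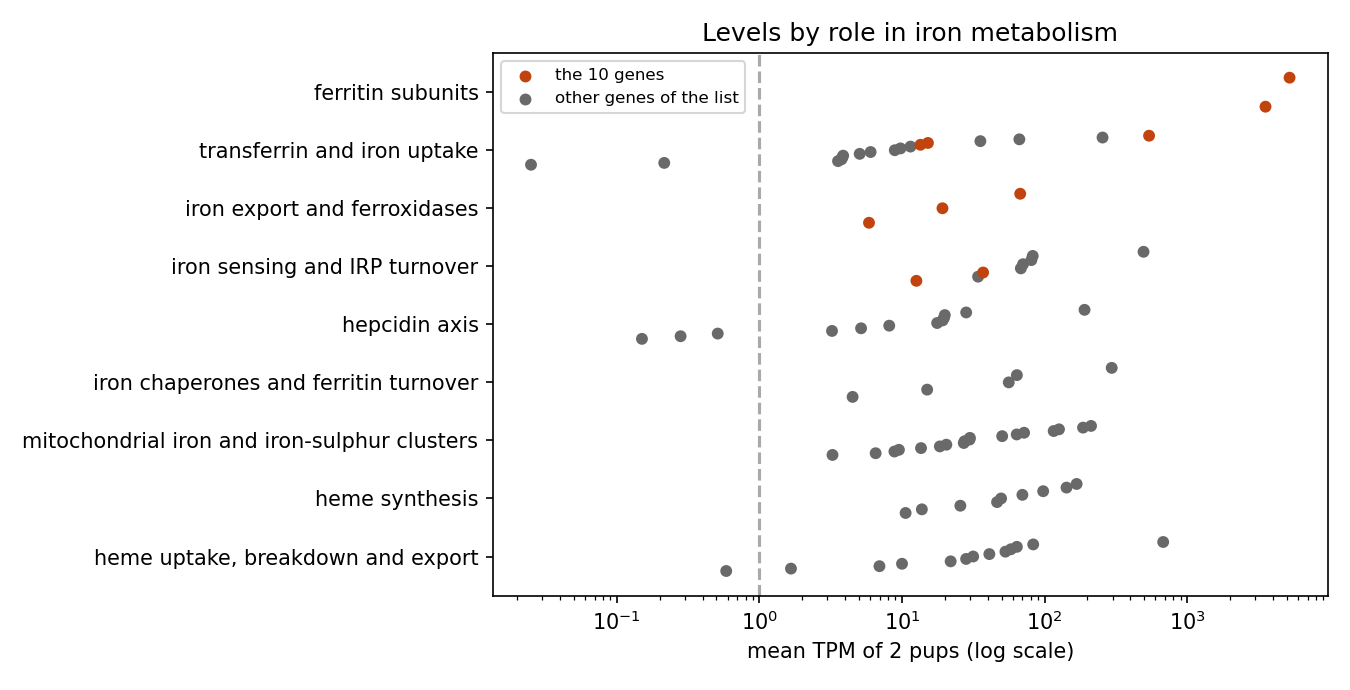
Mean TPM of 2 pups on a log axis for each gene of 9 lists of iron metabolism, 1 row per list and 1 point per gene, with the 10 genes in red; the vertical spread within a row only separates points, and the dashed line marks 1 TPM. Ftl1 and Fth1 lie to the right of every other gene shown; Ftmt, Hamp and Hamp2 at 0 counts and Hephl1 under 0.01 TPM are not drawn.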

How the data were processed

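The authors deposited gene and transcript tables with expected counts (estimated counts that need not be whole), TPM, FPKM and isoform percent, per the file headers, with posterior mean values beside them. The deposited TPM is per effective length and scaled to a fixed total per library. The deposited FPKM lacks that common total. Posterior SDs and other signal columns deposited by the authors were not used in any result. The assembly mm10 and annotation M4 are named in the deposited text files, and names, coordinates and transcript sequences are from GENCODE M21 on the same assembly. The Fth1 model has 929 bases in M21 and 866 in the deposited tables. Those of Ireb2 (5770 and 5808) and Epas1 (5516 and 5309) also differ, and the motif was searched in the M21 sequences. Neither aligner, counter nor use of strand is given in the sources used here. RNA longer than 200 nt (10 ng per library) was used, per the labels.

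Levels are means ± SD over 2 pups, and nothing beyond the pup and biological replicate numbers of the labels shows that the libraries are separate animals. Ratios are pup 1 over pup 3 on rounded expected counts scaled by TMM (edgeR 4.0.16, R 4.3.3), with a prior count of 0.5 for log2 ratios and exact conditional binomial 95% intervals (scipy 1.17.1) without it. The size rule was tested on simulated counts holding changes larger than its 2-fold limit. Recovery of smaller changes and coverage of the intervals were not tested. Copies were found with blastn 2.17.0. No p-value is given, since 1 group allows no comparison of conditions. Alternatives covered scaling (library total, DESeq2 1.42.0, spike-ins), unit, filters, the motif and each pup alone.

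The 10 genes and all lists were chosen with earlier results of these data known. The genes named are the 10, the 3 highest of each iron list, those at 0 or under 1 TPM in both pups, those past the size rule, copies with at least 50 counts and the leading markers. Others are named for an overlap or an element, and Fbxl5 was added after its values were seen. Some markers taken by the rule are left unnamed, and 1 gene is not reported here.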

Additional observations from a re-analysis of the deposited data

How the results depend on the processing

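None of the 10 genes differed between the pups by the size rule under any of 8 alternatives (library total, DESeq2 or spike-in scaling, posterior mean counts, deposited TPM + 1, a minimum of 10 counts, no minimum, and 1.5-fold, where the background was 5.06%). Under the others, the share of all tested genes past the rule ran from 0.538% (deposited TPM + 1) to 3.09% (a minimum of 10 counts). All 10 genes already passed the minimum of 50 counts, so a minimum of 10 or none could change only that share. The ratio of Ftl1 to Fth1 was 1.67 when taken from CPM, which do not correct for length, and 1.454 to 1.496 with each pup alone. The Tfrc share with the motif was 85.8% by posterior mean isoform percent, and 88.25% to 94.1% with each pup alone. The Slc11a2 share was 0% with the stricter motif by its construction, 30.8% by posterior mean isoform percent, and 32.6% to 34.9% with each pup alone. The number of ferritin copies with 50 or more counts, 3, was the same at 80% identity. Among the values recomputed, 114 stayed within the spread of the pups or the limit set for their kind and 46 moved, and the cause of a move other than length was not tested. Of the 114, 30 were from pup 3 alone and 30 from pup 1 alone. A single pup of 2 always lies within the SD around their mean, so these could not move. Shares of genes with 1 transcript, the FPKM ratio of Ftl1 to Fth1 and the result for the 10 genes at lower minimums could not move either. Most of the moves were levels given as FPKM or CPM, which are other units, and list medians under spike-in totals. Those totals shift all genes by 0.14 on the log2 scale. By posterior mean TPM 1 value moved and 10 stayed, and the 1 was the mean Fth1 level, from 3547 to 3479 TPM. Transcript shares by posterior mean isoform percent, which is not a change of unit, moved in 11 values and stayed in 8. The mean leading share of Slc40a1 went from 96.3% to 89.6%, and its share with the motif from 99.995% to 93.8%. The mean leading share of Heph went from 90.7% to 87.8%, whereas that of Ftl1 moved only from 98.85% to 98.795%. List medians that changed sign were uptake (-0.06, and 0.09 with spike-in totals), sensing (-0.05, and 0.10), chaperones (-0.02, and 0.12) and export (0.14, and -0.14 with no minimum count). No paired analysis was possible because there is 1 group. With 2 libraries, spread between animals is poorly known, and genes at few counts, such as Heph, are limited most by depth.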
